A study of Mus musculus with 8 samples.

Results

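The mitochondrial carrier family Slc25 was followed in cultured mouse alveolar macrophages, phagocytes that live in the airspaces of the lung. Its members were taken by symbol, as every gene named Slc25a and a number with Slc25a17 and Slc25a20 left out, which gave 42 of the 15521 genes in the authors' table. Of these, 36 held enough counts to be tested, among 11621 tested genes. The cells had been washed from mouse lungs, purified by 2 h of adherence and kept in medium with granulocyte macrophage colony-stimulating factor (GM-CSF) at 10 ng/ml, which all groups received. Bulk RNA-seq gave 8 libraries in 4 groups of 2: Poly(I:C) with MSDC, Poly(I:C) with vehicle, MSDC alone and vehicle alone. Vehicle was DMSO, MSDC was given at 10 µM for 2 h before stimulation, and Poly(I:C), a synthetic double-stranded RNA that mimics viral RNA, was given at 5 µg/mL for 24 h, a time that the series description calls overnight. Compounds whose code names begin with MSDC are known to bind the mitochondrial pyruvate carrier, but the labels do not name the compound further. Mouse strain, sex and age are not given in the sources used here. Nor is a separate animal or culture stated for each sample, so the p-values cover only sample-to-sample spread, part of which can be technical.

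Slc25 carriers are small proteins that span the inner mitochondrial membrane and exchange nucleotides, phosphate, carboxylates, amino acids and cofactors between cytosol and matrix. Through them mitochondria export ATP, send out citrate for lipid synthesis, move reducing equivalents by the malate-aspartate shuttle and take up iron, glycine, glutathione and NAD. The pyruvate carrier subunits Mpc1 and Mpc2 lie in the same membrane but belong to another family. In macrophages, exported citrate serves the synthesis of fatty acids, sterols and inflammatory mediators.

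Total counts lay between 28762425 and 29493223 a library, and a floor of 3 counts corresponded to 0.102 to 0.104 CPM, that is counts scaled to the library's total, which covers counting error only. All 11 alveolar macrophage markers of the list used were detected, with a summed level of 11760 to 13810 TPM (a level scaled to gene length and to the library's total), and Siglecf at 232 to 261 TPM. Single markers of that list differed widely between the groups with and without MSDC. Markers of T cells (summed level at most 0.2 TPM), B cells (at most 0.16 TPM) and fibroblasts (at most 0.4 TPM) were near 0. Of the epithelial list (7 of 7 genes in the table), Sftpa1 was at 0 in all libraries and Sftpb and Sftpc at most 0.09 TPM, while Cdh1 alone held 19.6 to 33.3 TPM. Replicates differed most in the vehicle group, with a chi-square statistic per degree of freedom of 14.8, against 4.29 to 6.36 in the other groups. Since the libraries are bulk samples, fewer cells of a kind and less RNA per cell cannot be told apart.

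The promoters of 3 members are shown because Slc25a1 and Slc25a12 carry the steadiest response to MSDC and Slc25a22 the steadiest response to Poly(I:C). Each is the RefSeq window (GRCm38.p6) from 250 bases before to 50 bases after an annotated start, 5′ to 3′ on the gene's strand. RefSeq windows were found for 31 of the 42 members (40 windows, since some genes have several starts). Capitals mark a CACGTG E-box and CCAAT boxes in Slc25a1 (chr16:17928170-17928469, minus strand) and a match to the interferon-stimulated response element (GAAA, any 2 bases, GAAA) in Slc25a22 (chr7:141435326-141435625, minus strand). A CCAAT box of Slc25a22 and the GC boxes of both genes are left in lower case. Slc25a12 (chr2:71367706-71368005, minus strand) has no capitals because none of the 7 motifs searched was found.
Slc25a1: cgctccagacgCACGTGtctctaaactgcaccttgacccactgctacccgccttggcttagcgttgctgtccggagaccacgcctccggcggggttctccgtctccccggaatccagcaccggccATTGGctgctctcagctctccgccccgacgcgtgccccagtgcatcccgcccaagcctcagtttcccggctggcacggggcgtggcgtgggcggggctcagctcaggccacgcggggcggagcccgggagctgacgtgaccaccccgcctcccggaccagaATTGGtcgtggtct
Slc25a22: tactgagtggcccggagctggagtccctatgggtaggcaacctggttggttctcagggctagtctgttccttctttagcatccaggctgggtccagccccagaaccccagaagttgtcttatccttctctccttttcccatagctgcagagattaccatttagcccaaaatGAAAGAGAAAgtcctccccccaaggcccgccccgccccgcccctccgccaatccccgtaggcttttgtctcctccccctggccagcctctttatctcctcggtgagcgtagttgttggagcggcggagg
Slc25a12: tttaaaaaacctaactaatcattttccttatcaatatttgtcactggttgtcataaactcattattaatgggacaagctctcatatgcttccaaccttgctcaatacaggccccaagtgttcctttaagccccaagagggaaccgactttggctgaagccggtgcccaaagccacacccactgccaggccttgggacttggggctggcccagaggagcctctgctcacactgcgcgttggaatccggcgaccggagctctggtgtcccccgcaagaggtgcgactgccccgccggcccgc

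The motifs were searched on both strands, and the E-box reads alike on both. The E-box stood 239 bases before the start of Slc25a1, and it occurred in 8 of the 40 members' windows (20.0%) and in 7.15% of all 32851 windows of the same length. The CCAAT boxes of Slc25a1 stood 125 bases before and 36 after the start, and that motif occurred in 50.0% of members' windows and 37.4% of all. The response element match stood 79 bases before 1 of the 3 annotated starts of Slc25a22, the other two windows had none, and it occurred in 5.0% of members' windows and 3.44% of all. The GC box GGGCGG occurred in 87.5% of members' windows and 35.7% of all, and neither the E-box, the CCAAT boxes nor the response element match overlapped it. The sterol response element TCACNCCAC was found in 1 member window (2.5%, against 1.24% of all) and not in that of Slc25a1, the NRF-1 site (GCGCA, any base, GCGC) in 2 (5.0%, against 4.6%), and the PPAR direct repeat (AGGTCA, any base, AGGTCA) in none, against 0.0396% of all. These are matches of letters, not measured binding, and windows of a gene with several starts can overlap and hold the same match. This holds for the E-box in Slc25a14 and for the CCAAT and GC boxes in Slc25a23, so the windows are not independent.

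The levels of the tested carriers spanned 0.08 to 1168 TPM and were led by the carriers of oxidative phosphorylation. Slc25a5, an ADP/ATP carrier that exchanges matrix ATP for cytosolic ADP, stood at 1062 and 1143 TPM with Poly(I:C) and MSDC, 975 and 997 TPM with Poly(I:C) and vehicle, 1168 and 1148 TPM with MSDC, and 1092 and 1044 TPM with vehicle. It alone made up 40.8 to 43.8% of the family's summed TPM. Next came Slc25a3, the phosphate carrier, at 357 to 415 TPM over the 8 libraries, Slc25a39, which is needed for glutathione uptake, at 198 to 232 TPM, and Slc25a4, the ADP/ATP carrier prominent in heart and muscle, at 137 to 176 TPM. The oxoglutarate/malate carrier gene Slc25a11 followed at 105 to 117 TPM. Slc25a5, Slc25a3 and Slc25a39 together held 64.8 to 66.2% of the family's TPM in every library. Below these carriers lay a broad middle, led with vehicle by Slc25a1 (102 and 105 TPM), Slc25a44 (68.6 and 63.6 TPM) and Slc25a24 (63.4 and 57.6 TPM). Further down, the order with vehicle could not always be resolved, since neighbours such as Slc25a22 (33.0 and 33.1 TPM) and Slc25a46 (33.2 and 26.3 TPM) overlapped.

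**Figure D1:**
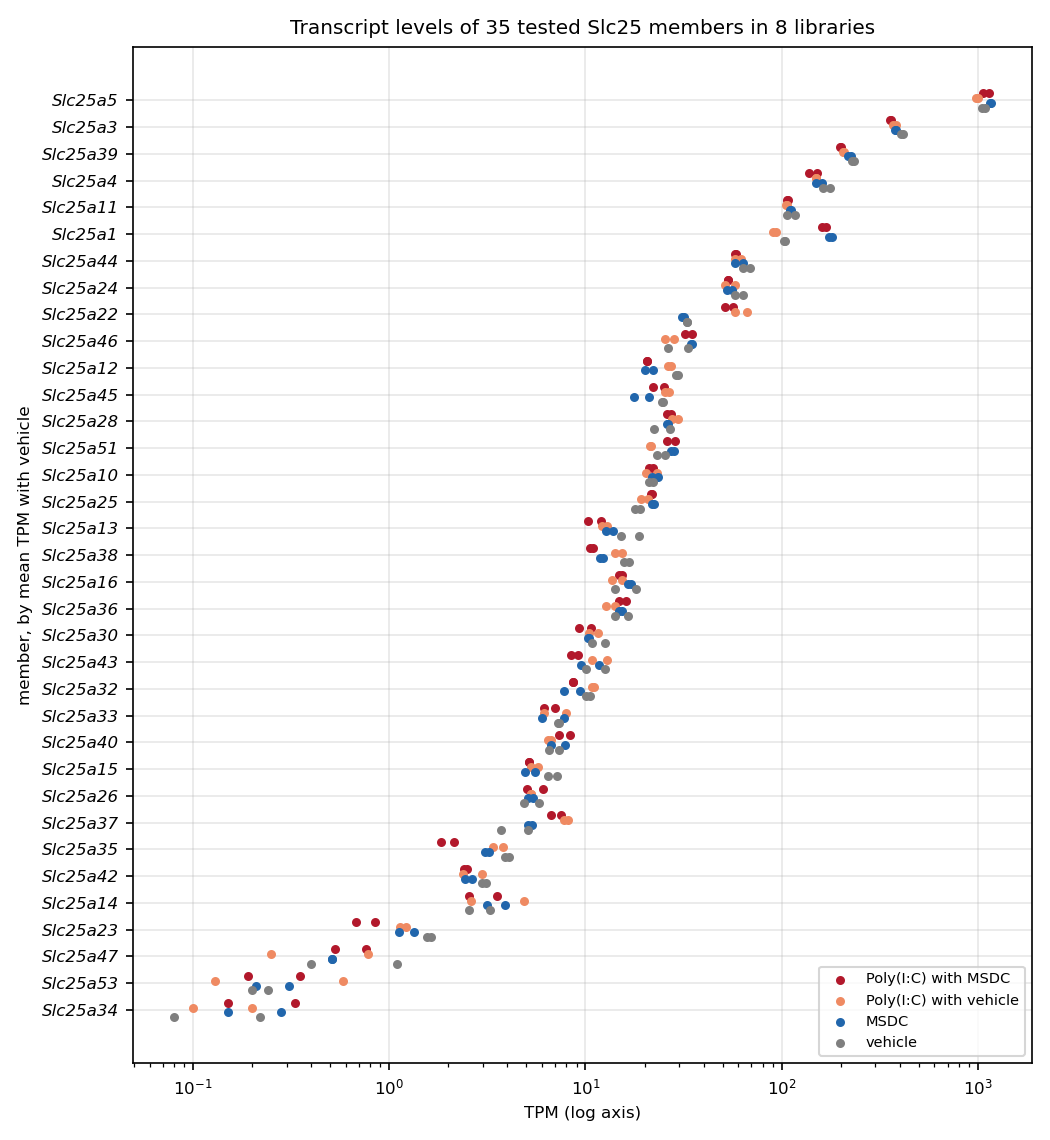
TPM on a log axis of 35 of the 36 tested Slc25 members, 1 point a library, coloured by group and ordered by mean TPM with vehicle. Slc25a5 lies at 975 to 1168 TPM in all 8 libraries, and Slc25a1 is the abundant member whose groups with MSDC (160 to 181 TPM) stand clear of those with vehicle (90.1 to 105 TPM).

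Some carriers were nearly silent. Slc25a27, an uncoupling-protein-like carrier, had no count in any library, Slc25a18, the second glutamate carrier gene, had 1 count in 1 library, and Slc25a2, a paralog of the ornithine carrier, at most 2. Slc25a31, the ADP/ATP carrier of the testis, had at most 3 counts, Slc25a41 at most 10 and Slc25a29, a carrier of basic amino acids, at most 14. These 6 members were not tested. Among tested members, Slc25a34, Slc25a53 and Slc25a47 had at most 13, 28 and 26 counts in a library, so their fold changes carry little information. The glutamate carrier pair was thus represented by Slc25a22, the mitoferrins by both Slc25a28 and Slc25a37, and the ADP/ATP carriers by Slc25a5 and Slc25a4.

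Summed over the 42 members, the family held 2498 and 2607 TPM with Poly(I:C) and MSDC, 2382 and 2447 TPM with Poly(I:C) and vehicle, 2679 and 2653 TPM with MSDC, and 2629 and 2541 TPM with vehicle, that is 0.238 to 0.268% of all TPM. The groups with MSDC lay above their vehicle counterparts in both settings, and the mean differences of Slc25a5 and Slc25a1 together exceeded that of the family. The TPM of Slc25a4 relative to Slc25a5 was 0.129 and 0.132 with Poly(I:C) and MSDC, against 0.154 and 0.151 with Poly(I:C) and vehicle. It was 0.128 and 0.140 with MSDC, against 0.149 and 0.169 with vehicle. Neither gene passed the test in any comparison, with log2 fold changes under MSDC of 0.14 (SE 0.06, adjusted p = 0.0815) and 0.13 (SE 0.06, adjusted p = 0.112) for Slc25a5 without and with Poly(I:C), and of -0.10 (SE 0.08) and -0.09 (SE 0.08) for Slc25a4. Their sequences are close, and reads could be split between them.

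The comparison of MSDC with vehicle in unstimulated cells asked what the compound changed at rest. Slc25a1, the citrate carrier gene, rose, and the genes of the aspartate/glutamate carriers, Slc25a12 and Slc25a13, fell, as did that of the glycine carrier, Slc25a38. Of 36 tested members 3 rose (8.33%) and 5 fell (13.9%) at a Benjamini-Hochberg adjusted p under 0.05 over all tested genes (edgeR's quasi-likelihood test), beside 11.1% of all tested genes called higher and 12.4% called lower. The members' shares were near these, and their median log2 fold change was -0.04, against 0.00 (-0.00152) for all genes. The counts rest on single libraries: 3 higher became 5 without vehicle replicate 1 and 1 without any of vehicle replicate 2, MSDC replicate 1 and MSDC replicate 2, and 5 lower became 2, 3, 2 and 2 in the same order. Markers differed with MSDC as well. Among alveolar macrophage markers, Krt79 stood at 91.8 and 85.3 TPM with MSDC, against 5.71 and 6.74 TPM with vehicle, Marco at 1019 and 1041 TPM against 324 and 399 TPM, Fabp4 at 2081 and 2196 TPM against 778 and 855 TPM, and Ear2 at 2564 and 2553 TPM against 977 and 980 TPM. Others were lower, with Chil3 at 4807 and 4697 TPM with MSDC, against 8536 and 8579 TPM with vehicle, and Pparg at 122 and 117 TPM against 189 and 197 TPM. Of the rest of the list, Itgax and Car4 were lower with MSDC too, Mrc1 and Adgre1 were higher, and Siglecf overlapped between the groups. The summed list stood at 13180 to 13250 TPM with MSDC, against 13760 to 13810 TPM with vehicle. Of 2 monocyte markers, Ly6c2 was at 0 in both groups and Ccr2 had 0.6 and 0.36 TPM with MSDC, against 2.16 and 2.01 TPM with vehicle. Of 3 endothelial markers, Cdh5 had 0.35 and 0.28 TPM with MSDC, against 1.33 and 0.84 TPM with vehicle, while Pecam1 overlapped between the groups and Kdr was at most 0.01 TPM. Epithelial markers, mostly Cdh1, summed to 26.5 to 29.7 TPM with MSDC, against 33.9 to 36.4 TPM with vehicle. Scgb1a1 of that list went the other way, at 1.67 and 2.11 TPM with MSDC, against 1.36 and 1.6 TPM with vehicle. S100a8, the 1 neutrophil gene of 4 in the table, stood at 38.6 to 46.0 TPM with MSDC, against 24.9 to 31.8 TPM with vehicle. Their part in the results for the carriers was not tested.

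Slc25a1 (chr16:17925211-17928219, GRCm38) had 181 and 175 TPM with MSDC, against 102 and 105 TPM with vehicle. The groups were far apart and the replicates close. Its log2 fold change was 0.81 (SE 0.06, adjusted p = 1.2e-07), a 1.75-fold rise, with 473 of the tested genes rising more. With this rise Slc25a1 passed Slc25a11 and Slc25a4 in the order of the levels, since Slc25a4 stood at 149 and 161 TPM with MSDC. The call held under all 14 alternative settings, with values of 0.77 to 0.85.

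Slc25a12 (chr2:71274270-71367781), which encodes aralar, a calcium-regulated aspartate/glutamate carrier of the malate-aspartate shuttle, had 22.0 and 20.2 TPM with MSDC, against 29.5 and 28.9 TPM with vehicle. All MSDC values lay below all vehicle values, and the log2 fold change was -0.43 (SE 0.08, adjusted p = 0.000487), called under all 14 settings. Its relative Slc25a13, which encodes citrin, had 13.9 and 12.7 TPM with MSDC, against 18.6 and 15.3 TPM with vehicle, and fell by 0.33 on the log2 scale (SE 0.11, adjusted p = 0.0391). Vehicle replicate 1 was high for Slc25a13: without it the value was -0.20 (adjusted p = 0.276), and the call was also lost without MSDC replicate 1 (-0.39, adjusted p = 0.074) or MSDC replicate 2 (-0.29, adjusted p = 0.213). The third carrier gene of that shuttle, Slc25a11, had 112 and 110 TPM with MSDC, against 117 and 107 TPM with vehicle (0.01, SE 0.06, adjusted p = 0.948).

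Slc25a38, the glycine carrier gene whose loss in humans causes a sideroblastic anemia, had 11.9 and 12.3 TPM with MSDC, against 16.7 and 15.7 TPM with vehicle. The groups did not overlap, and the log2 fold change was -0.44 (SE 0.11, adjusted p = 0.0101). The call was lost without vehicle replicate 1 (-0.39, adjusted p = 0.0619) and without MSDC replicate 1 (-0.43, adjusted p = 0.0688). Slc25a45 had 21.2 and 17.8 TPM with MSDC, against 24.8 and 24.6 TPM with vehicle (-0.33, SE 0.10, adjusted p = 0.0297). It lost the call without vehicle replicate 1 (-0.32, adjusted p = 0.0656), vehicle replicate 2 (-0.33, adjusted p = 0.0502) or MSDC replicate 2 (-0.23, adjusted p = 0.278).

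The remaining rises were small. Slc25a25, a calcium-dependent ATP-Mg/phosphate carrier gene, had 21.8 and 22.3 TPM with MSDC, against 19.0 and 17.9 TPM with vehicle (0.28, SE 0.08, adjusted p = 0.0172). Without vehicle replicate 2, MSDC replicate 1 or MSDC replicate 2 its adjusted p was 0.05, 0.0693 and 0.161, with values of 0.26, 0.30 and 0.24. Slc25a51, the mitochondrial NAD carrier gene, had 27.4 and 28.1 TPM with MSDC, against 25.5 and 23.2 TPM with vehicle (0.22, SE 0.07, adjusted p = 0.0396), a call lost under 11 of the 14 settings. These included the settings without vehicle replicate 2 (0.17, adjusted p = 0.147), MSDC replicate 1 (0.24, adjusted p = 0.115) or MSDC replicate 2 (0.17, adjusted p = 0.301), either Poly(I:C) with vehicle replicate (0.20 each, adjusted p = 0.0731 and 0.0733) or replicate 2 of Poly(I:C) with MSDC (0.20, adjusted p = 0.064). Slc25a25 shares 379 exonic bases with Naif1 on the opposite strand, and Naif1 stood at 2.83 to 4.5 TPM with no call in any comparison. The sources used here do not give the strandedness of the libraries, so reads of such pairs cannot be told apart.

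In cells stimulated with Poly(I:C), MSDC was again compared with vehicle to ask which carriers it changed during the response. Slc25a1 rose by a like amount, Slc25a12 and Slc25a38 fell again, and Slc25a35 and Slc25a22 were lower too. Of 36 members 3 rose (8.33%) and 5 fell (13.9%), beside 12.5% of all tested genes called higher and 13.6% called lower. The members' median was -0.09, against 0.00 (-0.00241) for all genes. The 3 higher fell to 1 when replicate 2 of Poly(I:C) with MSDC was left out. The 5 lower became 3 without MSDC replicate 1 or 2, replicate 2 of Poly(I:C) with vehicle or replicate 1 of Poly(I:C) with MSDC, 2 without replicate 2 of Poly(I:C) with MSDC, and 3 with replicate number as a block. Monocyte markers summed to 0.54 to 1.02 TPM with Poly(I:C) and MSDC, against 2.64 to 2.65 TPM with Poly(I:C) and vehicle, Cdh5 stood at 0.38 and 0.29 TPM against 1.6 and 1.39 TPM, Pecam1, another endothelial marker, at 0.2 and 0.15 TPM against 0.08 and 0.07 TPM, and S100a8 at 31.9 to 41.9 TPM against 27.2 to 27.7 TPM. Of the alveolar macrophage list, Krt79 stood at 120 and 116 TPM with Poly(I:C) and MSDC, against 8.76 and 8.89 TPM with Poly(I:C) and vehicle, Marco at 855 and 876 TPM against 280 and 259 TPM, and Chil3 at 4260 and 4557 TPM against 6526 and 6320 TPM. Ear2, Fabp4, Mrc1 and Adgre1 were higher with MSDC too, and Siglecf, Itgax, Car4 and Pparg were lower. The summed list stood at 13060 to 13630 TPM with Poly(I:C) and MSDC, against 11760 to 12060 TPM with Poly(I:C) and vehicle. The part of these markers in the results was not tested.

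Slc25a1 had 160 and 169 TPM with Poly(I:C) and MSDC, against 90.1 and 93.0 TPM with Poly(I:C) and vehicle. The log2 fold change was 0.81 (SE 0.07, adjusted p = 1.13e-07), called under all 14 settings with values of 0.78 to 0.85. Slc25a12 had 20.5 and 20.5 TPM with Poly(I:C) and MSDC, against 26.5 and 27.2 TPM with Poly(I:C) and vehicle (-0.41, SE 0.08, adjusted p = 0.000733), also called under all 14. Slc25a13 had 10.2 and 12.0 TPM with Poly(I:C) and MSDC, against 12.9 and 12.1 TPM with Poly(I:C) and vehicle, and was not called (-0.21, SE 0.11, adjusted p = 0.198). Slc25a38 had 10.9 and 10.6 TPM with Poly(I:C) and MSDC, against 14.1 and 15.3 TPM with Poly(I:C) and vehicle (-0.47, SE 0.12, adjusted p = 0.00613; -0.43 and adjusted p = 0.0609 without replicate 2 of Poly(I:C) with MSDC).

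The largest fall of this comparison among members was that of Slc25a35. It had 1.83 and 2.13 TPM with Poly(I:C) and MSDC, against 3.80 and 3.39 TPM with Poly(I:C) and vehicle, from 49 and 56 counts against 106 and 91 counts. The log2 fold change was -0.91 (SE 0.22, adjusted p = 0.00568), and -0.81 (adjusted p = 0.0544) without replicate 1 of Poly(I:C) with MSDC. In unstimulated cells it stood at 3.23 and 3.08 TPM with MSDC, against 4.07 and 3.91 TPM with vehicle, and was not called (-0.31, SE 0.21, adjusted p = 0.339). Its exons share 1151 bases with Rangrf on the opposite strand, which had 6.41 and 5.96 TPM with Poly(I:C) and MSDC, against 6.66 and 7.69 TPM with Poly(I:C) and vehicle (-0.27, SE 0.25, adjusted p = 0.472). The part of Rangrf reads in the value of Slc25a35 was not tested.

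Slc25a51 had 26.1 and 28.7 TPM with Poly(I:C) and MSDC, against 21.4 and 21.6 TPM with Poly(I:C) and vehicle (0.32, SE 0.07, adjusted p = 0.00375; 0.26 and adjusted p = 0.0562 without replicate 2 of Poly(I:C) with MSDC). Slc25a46, which encodes an outer membrane protein of mitochondrial fission and fusion, had 32.1 and 35.1 TPM with Poly(I:C) and MSDC, against 25.6 and 28.3 TPM with Poly(I:C) and vehicle (0.33, SE 0.09, adjusted p = 0.00921). Its call was lost when replicate 1 of Poly(I:C) with vehicle was left out (0.25, adjusted p = 0.126), and without replicate 2 of Poly(I:C) with MSDC (0.32, adjusted p = 0.066). In unstimulated cells Slc25a46 was at 34.8 and 34.7 TPM with MSDC, against 33.2 and 26.3 TPM with vehicle, and was not called (0.23, SE 0.09, adjusted p = 0.0643), but was called without vehicle replicate 1 (0.36, adjusted p = 0.00249). Slc25a46 shares 383 exonic bases with B930094E09Rik on the opposite strand.

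The fall of Slc25a22 was near the threshold. Slc25a22 had 56.1 and 51.2 TPM with Poly(I:C) and MSDC, against 57.7 and 66.5 TPM with Poly(I:C) and vehicle (-0.24, SE 0.08, adjusted p = 0.0401). The call was lost when replicate 2 of Poly(I:C) with vehicle (-0.12, adjusted p = 0.403), replicate 2 of Poly(I:C) with MSDC (-0.16, adjusted p = 0.323) or MSDC replicate 1 or 2 (-0.24 each, adjusted p = 0.0662 and 0.0668) was left out, and with the block (adjusted p = 0.0503).

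Both MSDC comparisons, which share no library, called Slc25a1 and Slc25a51 higher (2 of 3 in each) and Slc25a12 and Slc25a38 lower. Of all genes, 1002 were called higher in both, 77.4% of those called without Poly(I:C) and 69.1% of those called with it, and 1109 were called lower in both, 77% and 69.9%. Across the 36 members the fold changes of both comparisons correlated with Pearson's r = 0.582, and across 11621 genes with r = 0.745, where genes are not independent replicates.

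**Figure D2:**
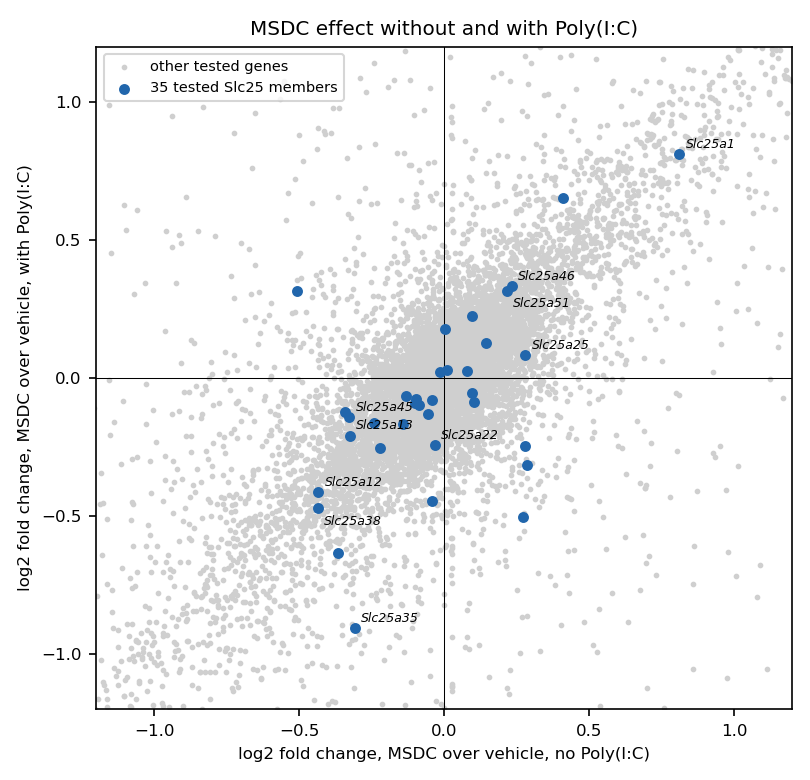
Log2 fold change of MSDC over vehicle without Poly(I:C) (x axis) and with it (y axis) for 35 of the 36 tested members (blue, named where called in either comparison) and the other tested genes (grey), with axes limited to 1.2 on either side. Slc25a1 lies at 0.81 on both axes, and Slc25a12 and Slc25a38 lie together at the lower left.

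Poly(I:C) with vehicle was compared with vehicle to ask which carriers the viral mimic changed on its own. The sample annotation used here gives no total culture time for the cells without Poly(I:C). Any difference in that time could not be told apart from Poly(I:C). A glutamate carrier gene, Slc25a22, and an iron carrier gene, Slc25a37, rose by nearly the same fold, and Slc25a13 fell. Of 36 members 2 rose (5.56%) and 1 fell (2.78%), beside 7.52% of all tested genes called higher and 4.1% called lower. The members' median was -0.05, against 0 for all genes. Scaled by library totals alone, all genes split into 729 higher and 867 lower in place of 874 and 477, while the members' counts stayed at 2 and 1. The 1 lower member became 0 without vehicle replicate 1 or either of the replicates of Poly(I:C) with vehicle, and 2 without vehicle replicate 2, which added Slc25a46 (-0.27, adjusted p = 0.0308). Epithelial markers, mostly Cdh1, summed to 22.1 to 23.9 TPM with Poly(I:C) and vehicle, against 33.9 to 36.4 TPM with vehicle. The alveolar macrophage list summed to 11760 to 12060 TPM, against 13760 to 13810 TPM. In it Chil3 was lower (6526 and 6320 against 8536 and 8579 TPM) and Ear2 higher (1448 and 1418 against 977 and 980 TPM). Of 2 monocyte markers, Ly6c2 had 0.61 and 0.36 TPM with Poly(I:C) and vehicle, against 0 with vehicle. The other, Ccr2, overlapped between the groups, at 2.04 and 2.28 TPM against 2.16 and 2.01 TPM. The part of these markers in the results was not tested.

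Slc25a22 (chr7:141429749-141437874), which carries glutamate into the matrix, had 57.7 and 66.5 TPM with Poly(I:C) and vehicle, against 33.0 and 33.1 TPM with vehicle. All stimulated values lay well above all unstimulated ones, at 2238 and 2564 counts against 1225 and 1304 counts. The log2 fold change was 0.99 (SE 0.08, adjusted p = 4.12e-07), a 1.98-fold rise, called under all 14 settings with values of 0.85 to 1.07. In the order of all tested genes, 425 rose more.

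Slc25a37 (chr14:69241848-69285544), which encodes mitoferrin-1, the iron importer known from developing red cells, had 7.81 and 8.17 TPM with Poly(I:C) and vehicle, against 5.12 and 3.72 TPM with vehicle. The groups did not overlap, although the vehicle replicates were apart. The log2 fold change was 0.94 (SE 0.13, adjusted p = 0.000123), called under all 14 settings with values of 0.74 to 1.17. Its broadly expressed relative Slc25a28, mitoferrin-2, had 29.6 and 27.8 TPM with Poly(I:C) and vehicle, against 22.3 and 27.0 TPM with vehicle, and was not called (0.22, SE 0.11, adjusted p = 0.251), but was called without vehicle replicate 2 (0.39, adjusted p = 0.0415). Slc25a28 was more abundant than Slc25a37 in all 8 libraries on the TPM scale. Markers of red cells were near 0, with Hba-a1 and Hba-a2 summing to at most 0.27 TPM. Slc25a37 shares 381 exonic bases with Gm31748 and 92 with Gm27223 on the opposite strand, and none of its 8 deposited counts was whole.

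Slc25a13 had 12.9 and 12.1 TPM with Poly(I:C) and vehicle, against 18.6 and 15.3 TPM with vehicle (-0.37, SE 0.11, adjusted p = 0.0352). Without vehicle replicate 1 the value was -0.25 (adjusted p = 0.202), and the call was also lost when replicate 1 of Poly(I:C) with vehicle (-0.45, adjusted p = 0.0554) or its replicate 2 (-0.34, adjusted p = 0.141) was left out. Slc25a1 was not called, at 90.1 and 93.0 TPM with Poly(I:C) and vehicle, against 102 and 105 TPM with vehicle (-0.11, adjusted p = 0.318). Slc25a12 was not called either (-0.05, adjusted p = 0.719).

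**Figure D3:**
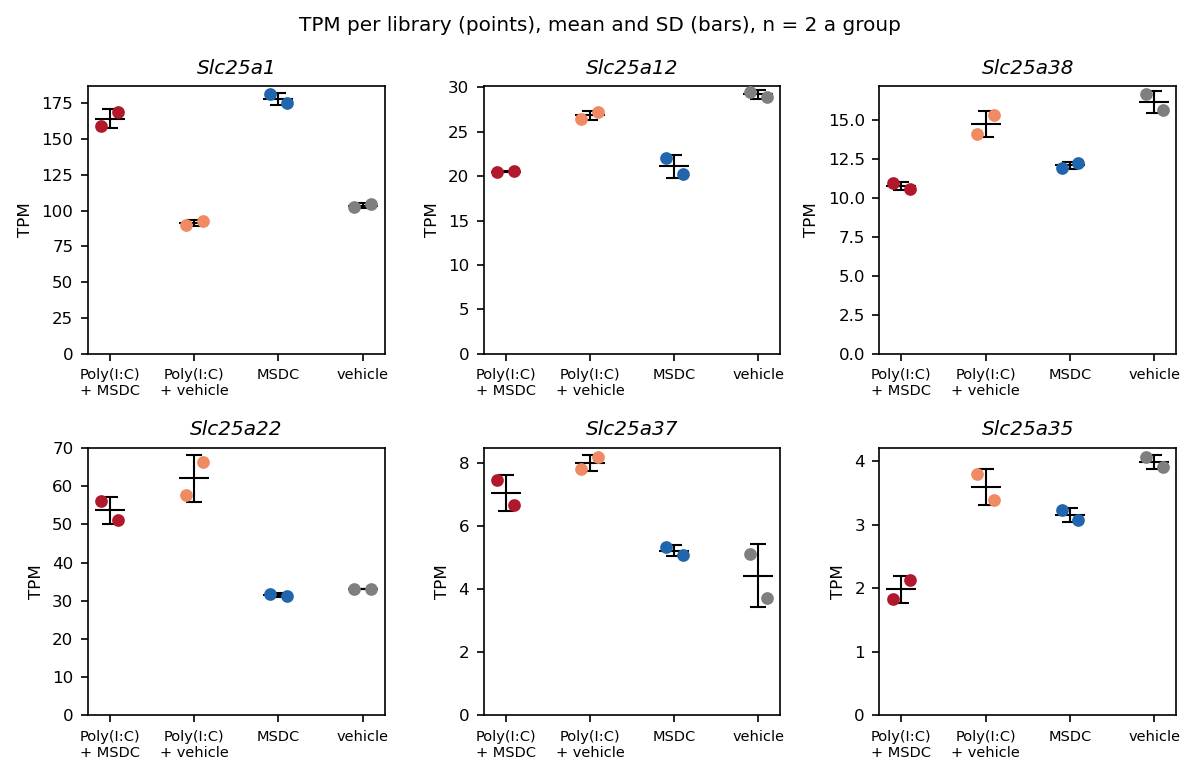
TPM of 6 members in each library (points) with the mean and SD of each group (bars, n = 2), groups from left to right Poly(I:C) with MSDC, Poly(I:C) with vehicle, MSDC and vehicle. Slc25a1, Slc25a12 and Slc25a38 separate by MSDC, Slc25a22 and Slc25a37 by Poly(I:C), and Slc25a35 is lowest with both, at 1.83 and 2.13 TPM.

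Poly(I:C) with MSDC was compared with MSDC to ask which carriers responded in cells given the compound beforehand. Slc25a22 rose here too, and it was the only member called among 36 (2.78%), beside 4.82% of all tested genes called higher. No member was called lower (edgeR), beside 1.5% of all tested genes, while DESeq2 called 0 and limma on log2(TPM + 1) called 1, Slc25a35. At an unadjusted p under 0.05 in edgeR, 7 of the 36 members passed in either direction, 4 of them lower. Of all tested genes, 16.4% passed that cut in either direction. The members' median was -0.04, against 0.00 (0.00159) for all genes. The 1 higher member became 2 without vehicle replicate 1 or 2, both times by the addition of Slc25a37. Epithelial markers, mostly Cdh1, summed to 21.1 to 22.3 TPM with Poly(I:C) and MSDC, against 26.5 to 29.7 TPM with MSDC. The alveolar macrophage list overlapped as a sum, at 13060 to 13630 TPM against 13180 to 13250 TPM, but single markers went both ways. Ear2 was higher (3300 and 3317 against 2564 and 2553 TPM), as was Krt79, and Marco was lower (855 and 876 against 1019 and 1041 TPM), as was Fabp4. Ly6c2 had 0.18 and 0.11 TPM against 0, and Ccr2 overlapped. Their part in the results was not tested.

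Slc25a22 had 56.1 and 51.2 TPM with Poly(I:C) and MSDC, against 31.8 and 31.2 TPM with MSDC (0.78, SE 0.08, adjusted p = 9.59e-06), called under all 14 settings with values of 0.70 to 0.85. Slc25a37 had 7.46 and 6.65 TPM with Poly(I:C) and MSDC, against 5.34 and 5.09 TPM with MSDC. The groups did not overlap, but the change was not called (0.42, SE 0.13, adjusted p = 0.0822). It was called with the 2 groups fitted alone (adjusted p = 0.0122), without the filter on low counts (adjusted p = 0.0174) and without vehicle replicate 1 or 2 (0.42 each, adjusted p = 0.0177 and 0.0171). Slc25a35 had 1.83 and 2.13 TPM with Poly(I:C) and MSDC, against 3.23 and 3.08 TPM with MSDC (-0.68, SE 0.22, adjusted p = 0.0979; -0.48 and adjusted p = 0.0344 with limma on log2(TPM + 1)).

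**Figure D4:**
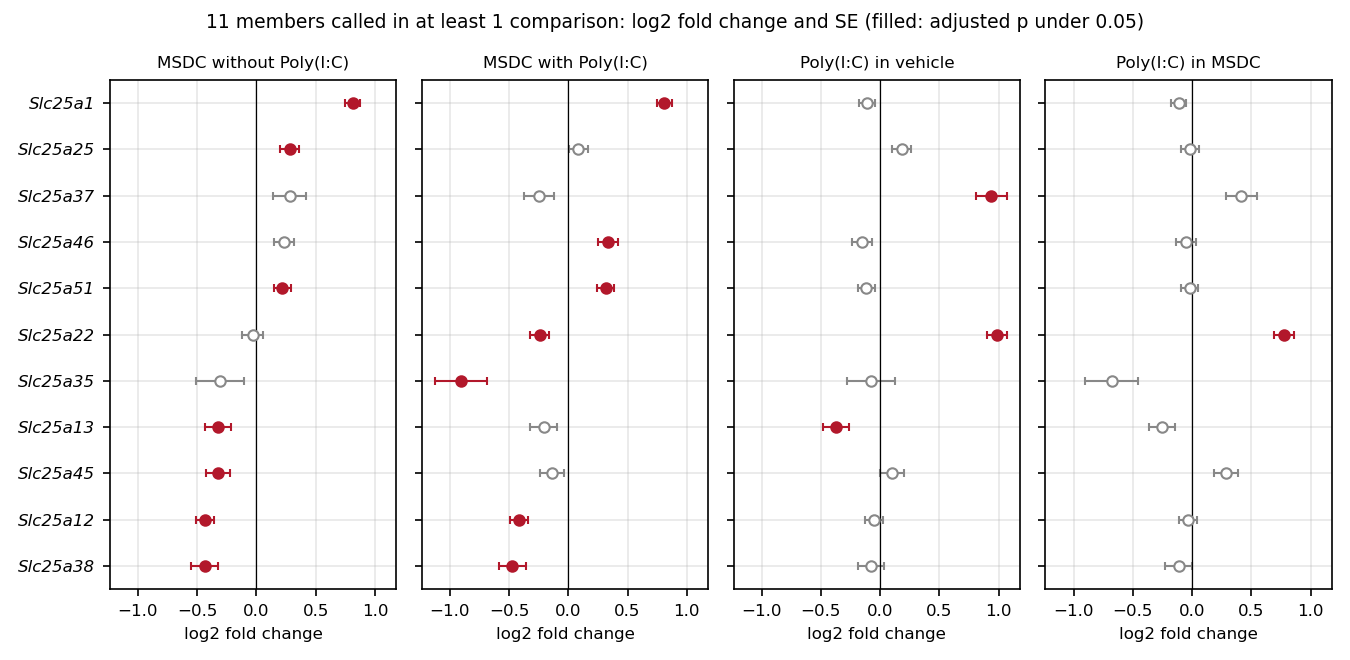
Log2 fold change (points) and SE (bars) of 11 of the 12 members called in at least 1 comparison, with a panel for each comparison and filled points where the adjusted p was under 0.05. Slc25a1 stands at 0.81 in both MSDC panels, and Slc25a22 at 0.99 and 0.78 in the Poly(I:C) panels.

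Whether the response to Poly(I:C) differed between MSDC and vehicle was tested as an interaction in the same model. No member was called (edgeR), beside 0.12% of all tested genes called higher and 0.103% called lower, and DESeq2 and limma called 0 members as well. At an unadjusted p under 0.05 in edgeR there was 1 member, Slc25a37, beside 6.51% of all tested genes. Its interaction was -0.52 on the log2 scale (SE 0.19, adjusted p = 0.576). The value for Slc25a22 was -0.21 (adjusted p = 0.83), for Slc25a35 -0.60 (SE 0.30, adjusted p = 0.816) and for Slc25a1 0.00 (-9.4e-05, adjusted p = 1). The falls and rises called in 1 setting and not in the other are therefore not shown to differ between the settings.

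The share of all tested genes called in at least 1 comparison was not computed. MSDC with Poly(I:C) alone called 12.5% of them higher and 13.6% lower. Without that share, the next count is a description and not a result about the family. Of the 36 tested members, 12 were called in at least 1 comparison and 24 in none. The log2 fold changes of these 24 ran from -0.51 (Slc25a47) to 0.41 (Slc25a34) with MSDC at rest and from -0.63 (Slc25a23) to 0.65 (Slc25a34) with MSDC under Poly(I:C). With Poly(I:C) they ran from -0.47 (Slc25a47) to 0.75 (Slc25a53) in vehicle and from -0.67 (Slc25a23) to 0.35 (Slc25a47) in MSDC. Of the nucleotide and phosphate carriers, Slc25a3, Slc25a4 and Slc25a5 were called in no comparison, Slc25a3 with log2 fold changes of -0.10 to -0.06. The pyrimidine nucleotide carrier genes Slc25a33 and Slc25a36, the folate carrier gene Slc25a32, the S-adenosylmethionine carrier gene Slc25a26 and the coenzyme A carrier gene Slc25a42 were not called. Slc25a32 had 8.60 and 8.62 TPM with Poly(I:C) and MSDC, against 10.8 and 11 TPM with Poly(I:C) and vehicle (-0.25, adjusted p = 0.113). Both glutathione carrier genes, Slc25a39 and Slc25a40, were uncalled, as were Slc25a15, the ornithine carrier gene (-0.34 under MSDC at rest, adjusted p = 0.0512), Slc25a44, the branched-chain amino acid carrier gene (-0.10, adjusted p = 0.365), and Slc25a10, the dicarboxylate carrier gene, at 20.4 to 23.5 TPM in all libraries.

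Genes that work beside the carriers were taken from fixed lists, whose counts stand beside 11.1% of all tested genes called higher and 12.4% called lower with MSDC at rest, and 12.5% and 13.6% with MSDC under Poly(I:C). Among other carriers, 3 of 6 tested genes rose and none fell with MSDC in both settings: Mpc2 (2.01 without Poly(I:C), SE 0.09; 1.97 with it, SE 0.09), Mpc1 (0.52, SE 0.06; 0.43, SE 0.07) and Ucp3, an uncoupling protein gene of the Slc25 fold (0.26, SE 0.09; 0.61, SE 0.09). Ucp2, whose transcript was the most abundant of this kind at 1502 to 1831 TPM, was not called in any comparison. Of 13 genes of the machinery that inserts carriers into the membrane, 0 were called with MSDC at rest (edgeR). With MSDC under Poly(I:C) 2 rose, the receptor gene Tomm70a (0.30, SE 0.07) and Timm22 (0.29, SE 0.10), the channel of the carrier translocase.

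Of 8 enzymes of the malate-aspartate and citrate shuttles, 1 rose and 1 fell with MSDC in each setting. Got1, the cytosolic aspartate aminotransferase that works beside Slc25a12 and Slc25a13, had 44.7 and 40.8 TPM with MSDC, against 52.5 and 52.0 TPM with vehicle (-0.26, SE 0.08, adjusted p = 0.0236). The malic enzyme gene Me1 had 2.38 and 2.02 TPM with MSDC, against 0.91 and 0.73 TPM with vehicle (1.53, SE 0.24, adjusted p = 0.000141). Acly, which splits the citrate that Slc25a1 exports, was not called under MSDC (0.02 without and 0.09 with Poly(I:C)) and fell by 0.23 with Poly(I:C) in vehicle (SE 0.06, adjusted p = 0.0163).

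Of 14 genes of heme and iron-sulfur synthesis, 4 rose and 1 fell with MSDC at rest. With MSDC under Poly(I:C) 5 rose and 1 fell. Both stand beside the shares of all tested genes given above. The transferrin receptor gene Tfrc rose with MSDC (0.64, SE 0.11 at rest and 0.70, SE 0.11 under Poly(I:C)). Alas1, the enzyme that joins the glycine brought in by Slc25a38 to succinyl-CoA, fell with MSDC. The fall was 0.23 at rest (SE 0.05, adjusted p = 0.00518) and 0.46 under Poly(I:C) (SE 0.05, adjusted p = 9.38e-06). Of 7 folate one-carbon genes, 1 rose and 2 fell in each MSDC comparison, with Mthfd1l at -0.61 at rest and -0.54 under Poly(I:C).

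Of 15 other inner-membrane transporters, 1 rose and 1 fell with MSDC at rest, and Mcub, an inhibitory subunit of the calcium uniporter, had 34.1 and 36.4 TPM with MSDC, against 70.1 and 65.5 TPM with vehicle (-0.92, SE 0.08, adjusted p = 3.0e-07). Of 7 ornithine and arginine genes, 1 rose and 2 fell with MSDC at rest, with Ass1, the argininosuccinate synthase gene, falling by 1.03 (SE 0.06) and Arg2, the mitochondrial arginase gene, by 1.28 (SE 0.18). With Poly(I:C) in vehicle, Ass1 rose by 1.09 (SE 0.06) and Arg2 by 0.74 (SE 0.16), and Ass1 was called in the interaction (-0.58, SE 0.09, adjusted p = 0.00987). Of 5 genes of branched-chain amino acid breakdown, 1 rose and 1 fell in each MSDC comparison: Bckdhb, a subunit of the branched-chain ketoacid dehydrogenase, rose with MSDC at rest (1.18, SE 0.10) and Bcat2, the mitochondrial aminotransferase gene, fell (-0.49, SE 0.07). For Poly(I:C) in vehicle, of the 15 inner-membrane transporters 1 was higher and 4 lower, and of the 14 heme and iron-sulfur genes 0 were higher and 2 lower, beside 7.52% of all tested genes called higher and 4.1% called lower. Medians of the 8 lists under MSDC at rest ran from -0.55 (ornithine and arginine) to 0.18 (other carriers), against 0.00 (-0.00152) for all tested genes. The value of -0.55 is that of Arg1, an uncalled gene at 0.32 to 0.62 TPM in these groups (SE 0.65), and the same list's median was -0.04 for MSDC with Poly(I:C).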

How the data were processed

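Bulk RNA-seq covered 8 libraries, 2 for each of 4 groups, which were taken from the sample labels. The authors deposited, per gene and sample, an expected count (read counts per the file headers, 5.95 to 7.19% of values in a library not whole), a TPM value scaled to gene length and library total, and an FPKM value that played no part here. Tools named in the submitters' processing notes are Bowtie2 2.3.4, TopHat2 2.1.1 and Cuffdiff, with the build GRCm38 (mm10), and no role is stated for any. Counting rules and strandedness are not given in the sources used here, so reads of close paralogs, overlapping genes and pseudogenes may be split or shared.

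Counts were rounded, filtered with filterByExpr (11621 of 15521 genes kept), scaled by TMM (factors 0.985 to 1.03) and fitted in 1 quasi-likelihood model over the 4 groups using edgeR 4.0.16 (R 4.3.3), which left 4 residual degrees of freedom. P-values are two-sided and adjusted by Benjamini-Hochberg over all tested genes of a comparison, and a gene was called under 0.05. SE was derived from the change and its F statistic. Levels are the deposited TPM. Alternatives were DESeq2 1.42.0, library totals in place of TMM, no filter on low counts, limma 3.58.1 on log2(TPM + 1), the compared groups alone, replicate number as a block, and each library left out in turn (the lone library is then assumed to vary like the others). Replicate numbers were not used as a pairing in the main model. Dates in place of gene symbols (23) were repaired by gene identifier. Positions and promoters are from RefSeq (GRCm38.p6), and exon overlaps from the GENCODE annotation of the same genome.

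Members and lists were chosen with earlier results of these data known. Named were all members called in a comparison, 10 fixed members and up to 4 genes of each list with the smallest p. Slc25a15, Slc25a32, Slc25a44, Ucp2, the single markers and members at the ends of a range were added after their values were seen. One member and one gene of a list are counted in the totals but not reported here.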

Additional observations from a re-analysis of the deposited data

How the results depend on the processing

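Of 20 calls of members, 7 held under all 14 alternatives (Slc25a1 and Slc25a12 under MSDC in both settings, Slc25a22 under Poly(I:C) in both, Slc25a37 under Poly(I:C) with vehicle), 13 were lost under at least 1, and 0 changed sign. Another 10 values gained a call under an alternative. Leaving out each library in turn gave 1 to 5 members higher and 2 to 6 lower for MSDC at rest, 1 to 3 and 2 to 6 for MSDC with Poly(I:C), 0 to 2 lower for Poly(I:C) in vehicle, and 1 to 2 higher for Poly(I:C) in MSDC. Over all genes it gave 819 to 1331 higher for MSDC at rest, 243 to 667 lower for Poly(I:C) in vehicle, 365 to 725 higher and 51 to 332 lower for Poly(I:C) in MSDC, and 3 to 62 higher and 2 to 39 lower for the interaction. Limma on log2(TPM + 1) gave 1 member higher for MSDC at rest, 3 lower for MSDC with Poly(I:C), 0 lower for Poly(I:C) in vehicle, 1 lower for Poly(I:C) in MSDC, and 7 genes higher in the interaction. Fitting the compared groups alone gave 0 members lower and 257 genes lower for Poly(I:C) in vehicle, and 2 members higher and 415 genes lower for Poly(I:C) in MSDC; it gives no interaction. Without the filter on low counts 2 members were higher and 298 genes lower for Poly(I:C) in MSDC, and 64 and 52 genes were called in the interaction. Library totals gave 867 genes lower for Poly(I:C) in vehicle and 14 higher and 4 lower in the interaction, against 14 and 12, and DESeq2 gave 23 and 24. The cause of these shifts was not tested.

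Replicate numbers are shared by the groups, but the correlations of replicate differences across the tested genes ran from -0.0262 to 0.034. No pairing was seen, but a shared animal or day is not excluded, since noise of genes with few counts can hide it. With replicate number as a block, 2 members were higher and 5 lower for MSDC at rest, 3 and 3 for MSDC with Poly(I:C), 2 and 1 for Poly(I:C) in vehicle, and 1 and 0 for Poly(I:C) in MSDC.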
